A study of Mus musculus with 24 samples.

Results

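White adipocytes make up most of the fat pad that surrounds the ducts of the mouse mammary gland. The genes described here are 32 that these cells use to store and release fat, taken as the genes named by non-control probes of the array. They matched 62 probes of 56605 probes in all, and all 32 genes passed a filter for signal above background, among 22382 genes that passed. The study used an Agilent one-colour expression array to measure RNA of the inguinal (#4) mammary gland, lymph node removed, in female C57BL/6 mice that are homozygous either for wild-type Socs2 (WT) or for a Socs2 knock-in allele that encodes the R96C change in SOCS2 (KI). The groups were 5 KI mice at 18 days of pregnancy, 5 WT mice at 18 days of pregnancy, 7 KI virgins of 8 weeks and 7 WT virgins of 8 weeks, each mouse on 1 array. The age of the pregnant mice is not in the labels, so pregnancy and age cannot be told apart. The probes cannot tell the knock-in codon from the wild-type one, and genotype was taken from the labels. Levels are log2 signals relative to the 75th percentile of the probes on the same array, and differences are day 18 minus virgin or KI minus WT on that scale, given with their standard error.

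A white adipocyte keeps triglyceride in a large droplet coated by perilipins. Under fasting or adrenergic signals, beta-adrenergic receptors raise cyclic AMP and a chain of lipases splits the triglyceride into fatty acids and glycerol. The chain starts with the adipose triglyceride lipase and its co-activator, continues with the hormone-sensitive lipase and ends with the monoglyceride lipase. Insulin opposes this by activating the phosphodiesterase PDE3B. Fatty acids reach the cell from blood lipoproteins through lipoprotein lipase, which is anchored on capillary walls by GPIHBP1. During pregnancy the epithelium expands into this fat pad and its cells fill with milk lipid, so one piece of gland holds both compartments in changing proportion.

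The 24 arrays were of similar quality except for a few. The array of KI virgin mouse 376 stood out for its negative-control spots, whose mean was 346.5 where no other array was outside 27.9 to 50.2. KI mouse 184 at day 18 had 43055 spots well above background, against 33374 to 39174 on the arrays other than these. KI virgin mouse 198 had a mean level of −2.70 for 9 luminal epithelial markers, against a median of 2.33 in its group, and 7.10 for 8 skeletal muscle markers. The muscle mean was above 0 on 9 arrays, in 3 of the KI day-18 glands, 1 of the WT day-18 glands, 3 of the KI virgins and 2 of the WT virgins. Socs2 itself averaged 1.88 ± 0.23 (SD, n = 5) in KI and 1.87 ± 0.29 (SD, n = 5) in WT glands at day 18, and 1.43 ± 0.77 (SD, n = 7) in KI and 2.07 ± 0.94 (SD, n = 7) in WT virgins. The adipocyte marker adiponectin (Adipoq) was well above background on all 24 arrays.

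Most of the 32 genes were lower at day 18 of pregnancy than in virgin glands. In KI glands 20 fell, 1 rose and 11 did not pass the test, and in WT glands 18 fell, 2 rose and 12 did not pass (limma, adjusted p under 0.05 over all 22382 genes). Across all genes tested, 18.5% were called lower and 23.7% higher in KI glands, and 19.3% lower and 21.6% higher in WT glands, against 20 and 18 of these 32 genes. Their median difference was −1.64 in KI glands, where all genes had a median of 0.12, and −1.48 in WT glands, where all genes had a median of 0.07. The counts depended on the scaling: relative to the array median 13 were called lower and 1 higher in KI glands and 11 lower and 0 higher in WT glands, and relative to the spike-ins 28 and 26 were lower and 0 higher. The shares of all genes given above do not apply to these counts. No share of all genes was set beside them, so they do not place the 32 genes against the array. Spike-in scaling shifted the stage differences by −0.91 in KI and −0.97 in WT glands. Most genes called over the array were then lower, and in WT glands so were most of all genes tested. Median scaling called fewer genes over the array in both genotypes, though it moved the members' stage differences by only 0.13 in KI and 0.14 in WT glands. The array median it subtracts was 10.69 for KI virgin mouse 376 and 6.36 for KI day-18 mouse 184. On no other array was it outside 4.41 to 5.82. The part of these 2 arrays in the calls lost with median scaling was not tested. Because a gland is a mixture, fewer adipocytes and less RNA per adipocyte cannot be told apart here. Of 9 luminal epithelial markers, 7 were higher at day 18 in KI glands and 5 in WT glands, and 5 of 5 milk secretion genes were higher in both; the part of the epithelium's growth in the fall was not tested.

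The mean of the 32 genes put every day-18 gland below every WT virgin. It was 2.74 to 3.90 in KI glands at day 18 and 2.89 to 5.47 in KI virgins, with means of 3.55 ± 0.48 (SD, n = 5) and 4.91 ± 0.91 (SD, n = 7). In WT glands it was 3.70 to 4.16 at day 18 and 4.84 to 5.33 in virgins, with means of 3.92 ± 0.20 (SD, n = 5) and 5.07 ± 0.18 (SD, n = 7). The lowest KI virgin was mouse 376, and without it the KI virgins averaged 5.24 ± 0.19 (SD, n = 6). The lowest KI gland at day 18 was mouse 239, without which that group averaged 3.75 ± 0.17 (SD, n = 4). Within each of the 3 slides of 8 arrays the median difference of the genes was also negative, at −1.41, −1.87 and −1.69 in KI glands and −1.07, −1.44 and −1.57 in WT glands, although some of these rest on 1 array.

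**Figure D1:**
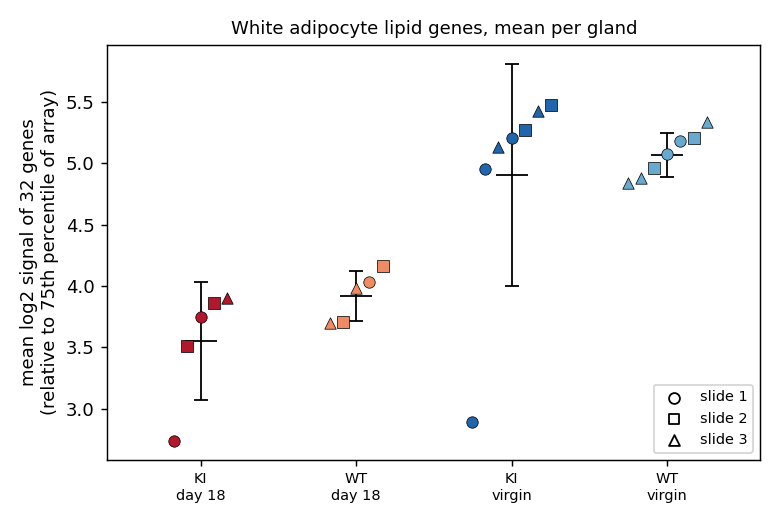
Mean log2 signal of the 32 genes in each gland (y axis, relative to the 75th percentile of the array) for KI day 18, WT day 18, KI virgin and WT virgin glands. Points are mice with a marker for each slide, and bars give the group mean and SD; the KI virgin at 2.89 is mouse 376 and the KI day-18 gland at 2.74 is mouse 239.

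The 3 droplet coat genes all fell. Plin1 encodes perilipin 1, which covers the adipocyte's droplet and holds lipases away from it until it is phosphorylated. Its levels in KI glands at day 18 were 0.85, 2.16, 2.38, 2.56 and 2.70, against 2.76 to 5.74 with a median of 5.20 in KI virgins. In WT glands at day 18 they were 2.10, 2.14, 2.64, 2.75 and 2.75, against 4.82 to 5.40 with a median of 5.08 in WT virgins. Neither genotype's stages overlapped, although KI mouse 376, at 2.76, came close to the highest day-18 gland of its genotype. The difference was −2.84 ± 0.38, adjusted p = 2.48e-06 in KI and −2.59 ± 0.38, adjusted p = 9.20e-06 in WT glands, 7.16-fold and 6.01-fold lower. Plin4, the perilipin of adipocytes that gathers on small nascent droplets, fell by 3.6-fold in KI (−1.85 ± 0.38, adjusted p = 4.57e-04) and 3.72-fold in WT glands (−1.89 ± 0.38, adjusted p = 3.70e-04). Cidec, whose product fuses small droplets into large ones, was at 4.54, 6.19, 6.53, 6.74 and 7.04 in KI glands at day 18, against 5.56 to 8.47 with a median of 8.11 in KI virgins. WT glands had 6.29, 6.29, 6.90, 6.98 and 7.10 at day 18, against 7.87 to 8.53 with a median of 8.02 in virgins. Its differences were −1.60 ± 0.41, adjusted p = 0.00307 in KI and −1.39 ± 0.41, adjusted p = 0.00898 in WT glands, with overlap between the stages in KI glands through mouse 376 alone on the virgin side. Scaled to the array median, Cidec did not pass in KI (−1.47, adjusted p = 0.113) or WT glands (−1.25, adjusted p = 0.183), nor did Plin4 in KI glands (−1.72, adjusted p = 0.0505).

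The promoter of Plin1 is shown because this gene had one of the largest falls and because its window holds 2 copies of a C/EBP core. It is RefSeq's window of 250 bases before to 50 after the start in GRCm38.p6, chr7:79732727-79733026 on the minus strand, with the matches to TTGCNNAA in capitals.
Plin1 promoter: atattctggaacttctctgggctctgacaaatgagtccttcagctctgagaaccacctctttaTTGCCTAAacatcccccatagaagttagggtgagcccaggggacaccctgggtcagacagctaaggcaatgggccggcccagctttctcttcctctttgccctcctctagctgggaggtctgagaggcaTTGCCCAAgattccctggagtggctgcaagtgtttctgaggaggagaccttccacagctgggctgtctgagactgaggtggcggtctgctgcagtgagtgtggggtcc
The table held a window for 20 of the 32 genes. TTGCNNAA, searched on both strands and including every TTGCGCAA, was found in 5 of them (Plin1, Cidec, Pparg, Cav2 and Retsat), and in 12.2% of the 27025 symbols with a window. The windows of Acvr1c and Klb, which fell by more than Plin1 in both genotypes, held 0 matches to it. AGGTCA, a core bound by nuclear receptors, also searched on both strands, was found in 4 (Pparg, Cd36, Adig and Abhd5) and in 18.1% of symbols. The direct repeat DR1, a pair of AGGTCA with 1 base between and so counted under AGGTCA too, was in 0 of the 20 windows and 0.0481% of symbols, and TTGCGCAA in 0 and 0.207%. TTCNNNGAA, the core bound by STAT factors, was in 3 (Lipe, Adig and Agt) and in 9.55% of symbols, and TATAAA in 5 and in 15.7%. A match says only that these letters are in the window.

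The lipolytic enzymes split. The hormone-sensitive lipase Lipe fell, the adipose triglyceride lipase Pnpla2 and the monoglyceride lipase Mgll did not pass the test, and Abhd5, which encodes the co-activator CGI-58 that switches PNPLA2 on, rose. Lipe levels in KI glands at day 18 were 0.12, 0.38, 0.50, 1.09 and 1.16, against −0.03 to 3.49 with a median of 2.73 in KI virgins. The WT levels were 0.46, 0.70, 0.70, 0.81 and 1.15 at day 18, against 2.15 to 3.31 with a median of 2.76 in virgins. Lipe fell by 3.56-fold in KI (−1.83 ± 0.39, adjusted p = 6.18e-04) and 4.06-fold in WT glands (−2.02 ± 0.39, adjusted p = 2.41e-04), and only the WT stages were free of overlap, since the lowest KI virgin was mouse 376. The KI call was lost with scaling to the array median (−1.70, adjusted p = 0.0723).

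Pnpla2 catalyses the first cut. At day 18 KI glands had 5.35, 6.19, 6.21, 6.30 and 6.34, against 4.87 to 7.45 with a median of 7.06 in KI virgins. WT glands at day 18 had 6.17, 6.29, 6.73, 6.80 and 6.91, against 6.73 to 7.36 with a median of 6.87 in virgins. The difference was −0.66 ± 0.31, adjusted p = 0.0900 in KI and −0.35 ± 0.31, adjusted p = 0.392 in WT glands. The KI difference became −0.98 (adjusted p = 1.24e-04) when mouse 376 was left out, so passing the test depended on that array. Mgll, the last lipase of the chain, was at 5.11 to 5.89 in KI glands at day 18 against 3.77 to 6.60 in KI virgins, and at 5.55 to 5.95 against 5.85 to 6.72 in WT glands (−0.41 ± 0.33, adjusted p = 0.347 in KI and −0.50 ± 0.33, adjusted p = 0.244 in WT glands). In the limma fit without mouse 376 it was called lower in KI (−0.78, adjusted p = 2.09e-04) and WT glands (−0.50, adjusted p = 0.00649). Its second probe was called lower in both, at −1.49 in KI and −1.23 in WT glands.

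Abhd5 went the other way. Its levels were 3.60, 3.71, 3.71, 3.81 and 3.90 in KI glands at day 18, against 0.78 to 3.01 with a median of 2.37 in KI virgins. They were 3.50, 3.72, 3.80, 4.26 and 4.40 in WT glands at day 18, against 2.54 to 3.11 with a median of 2.71 in WT virgins. Every day-18 gland was above every virgin of its genotype, and the rise was 2.67-fold in KI (1.42 ± 0.27, adjusted p = 1.76e-04) and 2.26-fold in WT glands (1.18 ± 0.27, adjusted p = 0.00109). Its 3 probes gave 1.42, 0.96 and 1.82 in KI and 1.18, 1.08 and 1.15 in WT glands, and each was called. With scaling to the spike-in RNAs in place of the 75th percentile, which lowers every stage difference by 0.91 in KI and 0.97 in WT glands, Abhd5 was at 0.51 (adjusted p = 0.0811) and 0.20 (adjusted p = 0.473). Scaling to the array median left it at 1.55 (adjusted p = 0.0486) in KI and 1.32 (adjusted p = 0.0927) in WT glands.

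The Abhd5 promoter, chosen after its values were seen as that of the member with the largest rise, is given from the same RefSeq table (GRCm38.p6, chr9:122351366-122351665, plus strand). The capitals mark its 1 match to AGGTCA, which reads TGACCT on this strand.
Abhd5 promoter: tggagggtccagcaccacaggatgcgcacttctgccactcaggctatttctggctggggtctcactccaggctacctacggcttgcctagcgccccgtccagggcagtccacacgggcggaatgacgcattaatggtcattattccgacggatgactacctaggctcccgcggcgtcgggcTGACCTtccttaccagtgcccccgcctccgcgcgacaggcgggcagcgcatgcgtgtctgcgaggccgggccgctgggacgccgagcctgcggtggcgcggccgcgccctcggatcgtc

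Pnpla3, the nutrient-regulated relative of Pnpla2 that remodels droplet triglyceride, fell by 7.01-fold in KI (−2.81 ± 0.34, adjusted p = 7.42e-07) and 4.44-fold in WT glands (−2.15 ± 0.34, adjusted p = 2.56e-05), in contrast to Pnpla2 itself. Aoc3, a cell-surface amine oxidase abundant on adipocytes, fell by 4.4-fold in KI (−2.14 ± 0.32, adjusted p = 1.08e-05) and 3.59-fold in WT glands (−1.85 ± 0.32, adjusted p = 6.67e-05). Its day-18 levels were 2.20 to 3.37 in KI and 3.17 to 3.68 in WT glands, and its virgin levels 3.19 to 5.78 in KI and 4.84 to 5.52 in WT glands. Only in KI glands did the stages touch.

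The receptors that start or damp lipolysis held the largest fall of each genotype, Klb in KI and Acvr1c in WT glands. Adrb3 encodes the beta-3 adrenergic receptor, through which noradrenaline triggers lipolysis in mouse fat. It was at 1.60, 2.75, 2.76, 2.79 and 2.92 in KI glands at day 18, against 3.58 to 6.31 with a median of 5.90 in KI virgins. WT glands at day 18 had 3.0, 3.02, 3.03, 3.40 and 3.86, against 5.36 to 6.22 with a median of 5.85 in WT virgins. The stages did not overlap in either genotype, and the fall was 7.94-fold in KI (−2.99 ± 0.34, adjusted p = 3.56e-07) and 5.92-fold in WT glands (−2.57 ± 0.34, adjusted p = 2.98e-06).

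Acvr1c encodes ALK7, a type I receptor for activin B and GDF3 that restrains lipolysis in fat. Its day-18 levels were −1.45, 0.04, 0.37, 0.47 and 0.82 in KI glands, against 0.72 to 3.50 with a median of 3.27 in KI virgins. In WT glands they were −1.67, 0.20, 0.27, 0.37 and 0.77, against 2.75 to 3.76 with a median of 2.97 in virgins. One gland in each day-18 group, KI mouse 239 and WT mouse 206, lay well below the rest. Acvr1c was 7.29-fold lower in KI (−2.87 ± 0.45, adjusted p = 2.18e-05) and 8.63-fold lower in WT glands (−3.11 ± 0.45, adjusted p = 8.66e-06), the largest fall of the 32 genes in WT glands. Klb, beta-klotho, is the co-receptor that lets FGF21 signal to fat. KI glands at day 18 had −2.24, −1.88, −1.07, −0.91 and −0.64, against 0.03 to 2.73 with a median of 1.95 in KI virgins. WT glands had −1.23, −0.86, −0.62, −0.59 and −0.38 at day 18, against 0.65 to 2.70 with a median of 2.22 in virgins. No day-18 gland reached a virgin of its genotype, with falls of 8.24-fold in KI (−3.04 ± 0.41, adjusted p = 2.96e-06) and 6.75-fold in WT glands (−2.76 ± 0.41, adjusted p = 1.18e-05). Pde3b, the phosphodiesterase through which insulin quenches lipolysis, was 5.21-fold lower in KI (−2.38 ± 0.40, adjusted p = 4.89e-05) and 4.28-fold lower in WT glands (−2.10 ± 0.40, adjusted p = 2.08e-04).

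Npr3 and Agt did not follow. Npr3, the clearance receptor that removes natriuretic peptides, was at 0.69 to 2.29 in KI glands at day 18 against 0.16 to 3.22 in KI virgins, and at 0.37 to 2.16 against 0.50 to 2.10 in WT glands. The difference was −0.49 ± 0.44, adjusted p = 0.402 in KI and −0.00 ± 0.44, adjusted p = 0.998 in WT glands. Its 3 probes differed in sign in WT glands, between −0.33 and 0.11, the only case among the 19 genes with several probes, and in KI glands the other 2 were called lower, at −0.52 (adjusted p = 0.0274) and −1.11 (adjusted p = 0.0453). Agt, angiotensinogen, was at 0.41 ± 0.44, adjusted p = 0.488 in KI and 0.43 ± 0.44, adjusted p = 0.472 in WT glands, with ranges in virgins (−0.65 to 2.73 in KI and 0.39 to 2.68 in WT) that enclosed every day-18 value, and with spike-in scaling its differences were −0.50 in KI and −0.54 in WT glands.

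**Figure D2:**
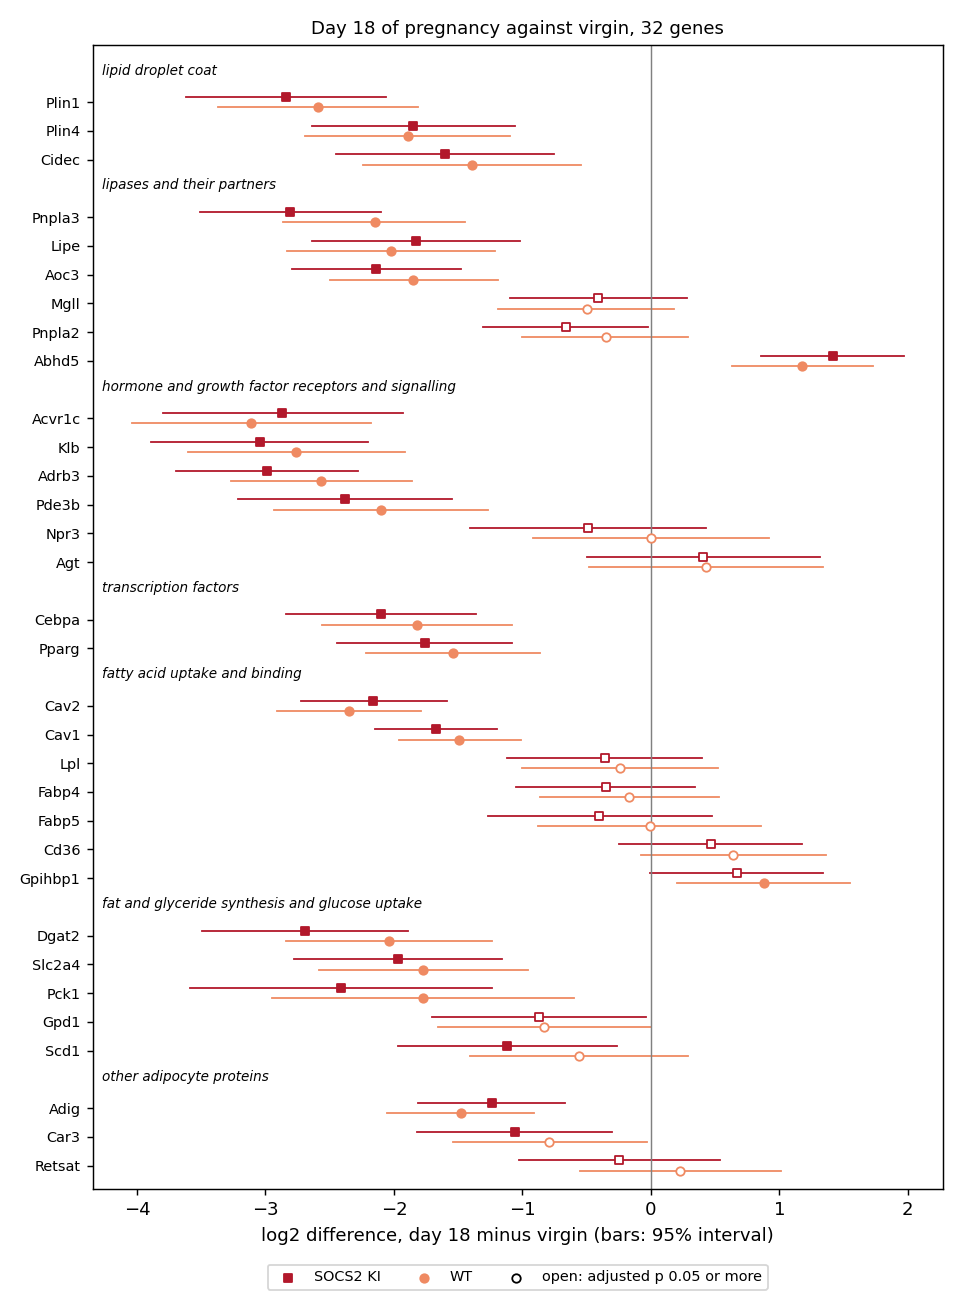
Log2 difference between day 18 and virgin glands (x axis) for the 32 genes, grouped by role, with KI above WT for each gene. Bars are 95% intervals, filled symbols passed the test at adjusted p under 0.05 and open symbols did not; differences ran from −3.04 to 1.42 in KI and from −3.11 to 1.18 in WT glands.

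Both transcription factors of fat identity were called lower in both genotypes with the 75th-percentile scaling. Pparg, the nuclear receptor required for adipocyte formation, was at 2.64, 3.47, 3.55, 3.55 and 3.59 in KI glands at day 18, against 2.95 to 5.77 with a median of 5.44 in KI virgins. WT glands had 3.59, 3.77, 3.79, 4.10 and 4.13 at day 18, against 5.15 to 5.65 with a median of 5.44 in virgins. The fall was 3.39-fold in KI (−1.76 ± 0.33, adjusted p = 1.54e-04) and 2.91-fold in WT glands (−1.54 ± 0.33, adjusted p = 6.12e-04), and WT stages were well apart. Cebpa, its partner at many adipocyte genes, was 4.28-fold lower in KI (−2.10 ± 0.36, adjusted p = 5.94e-05) and 3.53-fold lower in WT glands (−1.82 ± 0.36, adjusted p = 2.89e-04). Scaled to the array median, Pparg did not pass in KI (−1.63, adjusted p = 0.0594) or WT glands (−1.40, adjusted p = 0.105), nor did Cebpa in WT glands (−1.68, adjusted p = 0.0616).

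Fatty acid uptake and binding had the median stage difference nearest to 0 among the roles, at −0.36 in KI and −0.17 in WT glands. Of its 7 genes, the caveolins Cav1 and Cav2 fell in both genotypes, Gpihbp1 rose in WT glands, and Fabp4, Fabp5, Lpl and Cd36 passed the test in neither. Cav2 was at 1.89, 2.13, 2.14, 2.21 and 2.32 in KI glands at day 18, against 2.66 to 4.75 with a median of 4.67 in KI virgins. In WT glands it was at 1.47, 2.08, 2.14, 2.17 and 2.31, against 4.0 to 4.71 with a median of 4.50 in virgins. Its falls of 4.45-fold in KI (−2.16 ± 0.27, adjusted p = 1.28e-06) and 5.1-fold in WT glands (−2.35 ± 0.27, adjusted p = 4.14e-07) came with stages that did not overlap. Cav1, the main protein of caveolae, was 3.19-fold lower in KI (−1.67 ± 0.23, adjusted p = 4.23e-06) and 2.8-fold lower in WT glands (−1.49 ± 0.23, adjusted p = 2.06e-05), where scaling to the array median left it at −1.35 (adjusted p = 0.0508).

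Gpihbp1, the capillary anchor of lipoprotein lipase, was at 4.36, 4.37, 4.55, 4.61 and 4.85 in KI glands at day 18, against 1.71 to 4.69 with a median of 4.20 in KI virgins. WT glands at day 18 had 4.65, 4.92, 5.21, 5.27 and 5.62, against 4.11 to 4.44 with a median of 4.26 in virgins. Every WT day-18 gland was above every WT virgin, and the rise of 1.84-fold (0.88 ± 0.33, adjusted p = 0.0355) passed the test, whereas the KI difference did not (0.67 ± 0.33, adjusted p = 0.108) and was 0.30 (adjusted p = 0.0965) without mouse 376. The WT call was lost when any 1 of 7 mice was left out (day-18 mice 206, 233 and 235 and virgins 188, 256, 318 and 320), with adjusted p of 0.0507 to 0.102. Without KI virgin mouse 376, which alters only the shared spread here, the WT difference stayed at 0.88 and its adjusted p was 2.98e-05. The difference between the genotypes in this change was itself −0.21 ± 0.46 (adjusted p = 1.00). Spike-in scaling turned both values negative, to −0.24 (adjusted p = 0.483) in KI and −0.10 (adjusted p = 0.776) in WT glands.

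Lpl, the lipase that releases fatty acids from lipoproteins, was at 6.18, 6.41, 6.87, 7.04 and 7.59 in KI glands at day 18, against 4.98 to 7.83 with a median of 7.59 in KI virgins. WT glands had 6.74, 6.81, 6.84, 7.70 and 7.77 at day 18, against 7.07 to 7.63 with a median of 7.51 in virgins. The ranges overlapped in both genotypes (−0.36 ± 0.37, adjusted p = 0.458 in KI and −0.24 ± 0.37, adjusted p = 0.643 in WT glands), and none of its 6 probes was called in either. Fabp4, the adipocyte fatty acid carrier, was at 7.25, 8.04, 8.10, 8.17 and 8.28 in KI glands at day 18, against 6.15 to 9.0 with a median of 8.73 in KI virgins. In WT glands the levels were 7.95, 8.33, 8.47, 8.48 and 8.58 at day 18, against 8.28 to 8.82 with a median of 8.54 in virgins (−0.35 ± 0.34, adjusted p = 0.428 in KI and −0.17 ± 0.34, adjusted p = 0.733 in WT glands). Without mouse 376 the KI differences were −0.72 (adjusted p = 0.00133) for Fabp4 and −0.73 (adjusted p = 0.0102) for Lpl, both called. The fatty acid carrier Fabp5, which is also made by epithelia and macrophages, was at −0.40 in KI and −0.01 in WT glands (adjusted p = 0.482 and 0.988). Cd36, the fatty acid translocase, was at 0.47 in KI and 0.64 in WT glands (adjusted p = 0.301 and 0.153), and at −0.44 and −0.34 when scaled to the spike-ins.

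The enzymes of fat synthesis mostly fell. Dgat2, which adds the last fatty acid to triglyceride, was 6.44-fold lower in KI (−2.69 ± 0.39, adjusted p = 7.17e-06) and 4.12-fold lower in WT glands (−2.04 ± 0.39, adjusted p = 1.87e-04). Its levels of 4.01 to 5.39 in KI glands at day 18 lay below those of 5.49 to 8.59 in KI virgins, and its levels of 4.91 to 5.80 in WT glands at day 18 below those of 7.04 to 8.24 in WT virgins. Slc2a4, the insulin-regulated glucose transporter GLUT4, was 3.92-fold lower in KI (−1.97 ± 0.39, adjusted p = 3.00e-04) and 3.42-fold lower in WT glands (−1.77 ± 0.39, adjusted p = 8.47e-04). Pck1, which makes glycerol phosphate from pyruvate in fat, was 5.32-fold lower in KI (−2.41 ± 0.57, adjusted p = 0.00148) and 3.42-fold lower in WT glands (−1.77 ± 0.57, adjusted p = 0.0149), and KI mouse 239, at 1.12, set the low end of its day-18 range. In WT glands the calls of Slc2a4 (−1.64, adjusted p = 0.0745) and Pck1 (−1.64, adjusted p = 0.127) were lost with scaling to the array median.

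Scd1, the delta-9 desaturase, passed the test in KI glands alone (−1.12 ± 0.41, adjusted p = 0.0329), while WT glands had −0.56 ± 0.41, adjusted p = 0.301, and the genotype difference of these changes was −0.56 ± 0.59 (adjusted p = 1.00). The KI call was lost when any 1 of 6 KI mice was left out (day-18 mice 210 and 239 and virgins 198, 251, 313 and 314), with adjusted p of 0.0533 to 0.118. Without mouse 376 the KI value of Scd1 was larger, at −1.53 (adjusted p = 4.49e-05). Gpd1, glycerol-3-phosphate dehydrogenase, passed in neither (−0.87 ± 0.40, adjusted p = 0.0876 in KI and −0.83 ± 0.40, adjusted p = 0.106 in WT glands). Adig, adipogenin, fell by 2.36-fold in KI (−1.24 ± 0.28, adjusted p = 8.50e-04) and 2.79-fold in WT glands (−1.48 ± 0.28, adjusted p = 1.55e-04), and neither passed when scaled to the array median (−1.11, adjusted p = 0.167 in KI and −1.34, adjusted p = 0.0870 in WT glands). Car3, carbonic anhydrase 3, was called in KI (−1.06 ± 0.37, adjusted p = 0.0230) but not in WT glands (−0.79 ± 0.37, adjusted p = 0.0921), although the WT stages did not overlap, at 7.41 to 7.98 against 8.11 to 8.71. Without mouse 239 the KI value was −0.81 (adjusted p = 0.0969), and without mouse 376 it was −1.43 (adjusted p = 1.24e-05). The interaction for Car3 was −0.27 ± 0.52 (adjusted p = 1.00). Retsat, retinol saturase, did not pass in either (−0.25 ± 0.38, adjusted p = 0.639 in KI and 0.23 ± 0.38, adjusted p = 0.666 in WT glands).

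**Figure D3:**
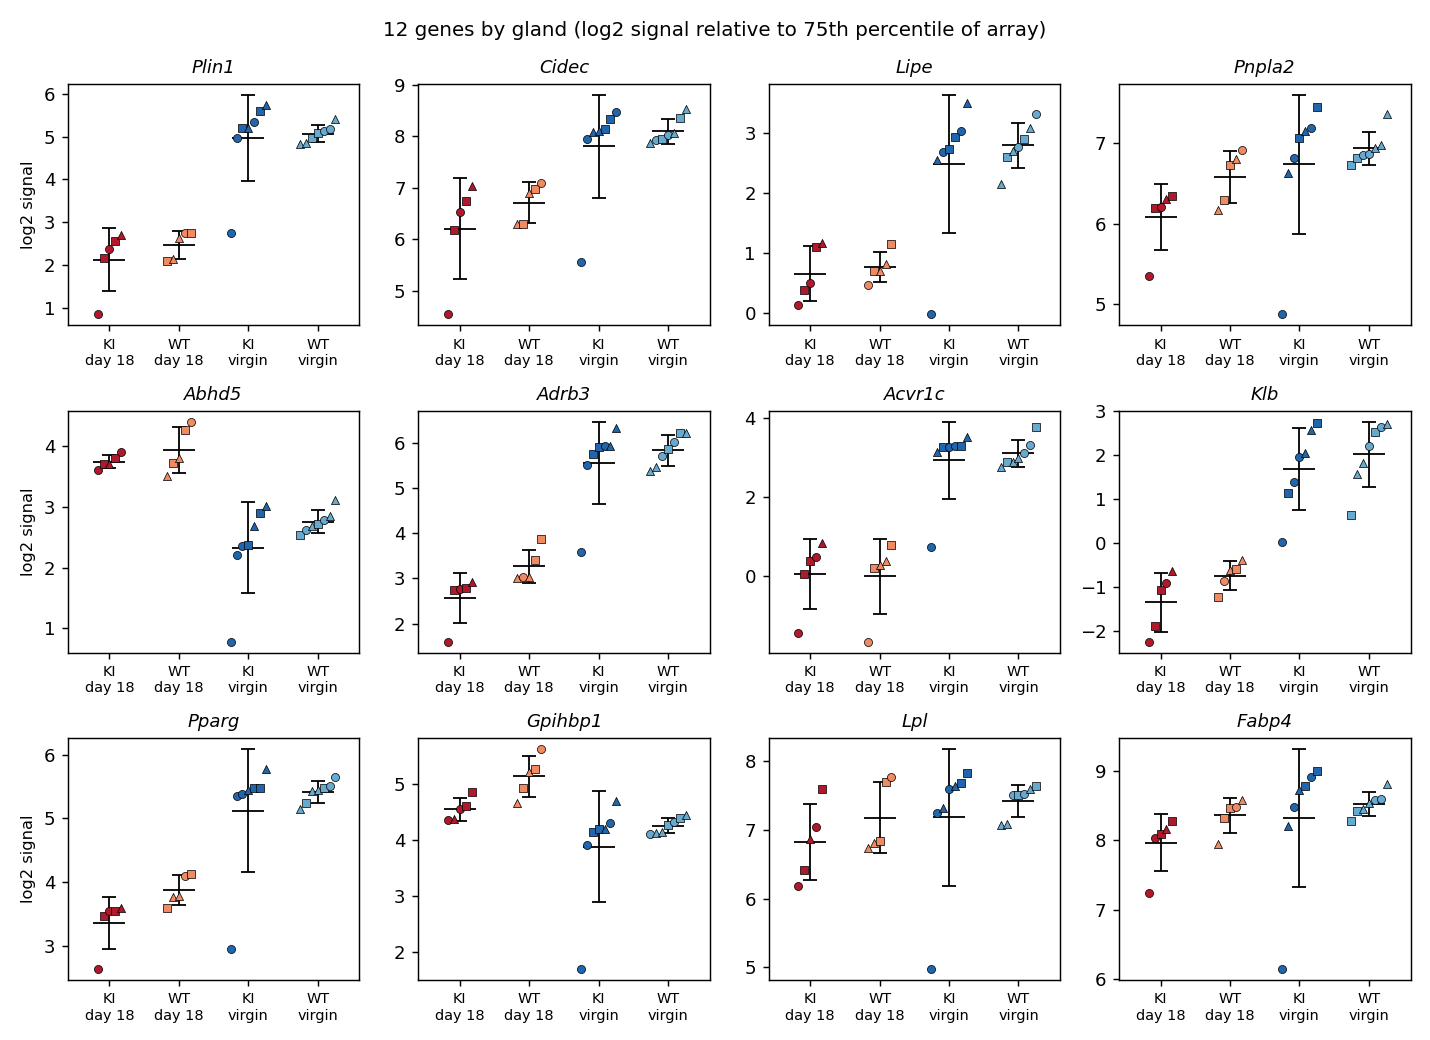
Log2 signal (y axis, relative to the 75th percentile of the array) of 12 of the genes in each gland of the 4 groups, with points for mice, a marker for each slide as in the plot of means, and bars for the group mean and SD. Plin1, Lipe, Adrb3, Acvr1c, Klb and Pparg are lower at day 18, Abhd5 is higher, and KI virgin mouse 376 is the lowest KI virgin in each panel.

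Counting genes whose stages did not overlap gave 7 lower and 1 higher in KI glands, where 6.08% of all genes were lower and 13% higher without overlap, and 19 lower and 2 higher in WT glands, where the shares were 17.3% and 21.7%. The KI count depended on 1 array: without mouse 376 it was 23 lower and 1 higher, against 14.7% and 18.2% of all genes. In the fit without that mouse more genes were called over the array: 24.7% of all genes were lower and 30.2% higher in KI glands, and 25.1% lower and 32.4% higher in WT glands. The number of the 32 called lower was then 26 in KI glands, adding Fabp4, Fabp5, Gpd1, Lpl, Mgll and Pnpla2. It was 21 in WT glands, adding Car3, Gpd1 and Mgll, with Cd36 added to those higher, since the groups share 1 estimate of spread and only the spread changed.

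The choice of probe mattered for some genes. The brightest passing probe was used for each gene, and in a fit of all 35117 passing probes, over which these adjusted p-values run, the other Fabp4 probe gave −1.45 (adjusted p = 0.00499) in KI and −0.98 (adjusted p = 0.0511) in WT glands. For Car3 the other probes gave −2.52 and −2.62 in KI and −2.35 and −2.27 in WT glands, all called, against −1.06 and −0.79 for the brightest. The second Mgll probe gave −1.49 (adjusted p = 0.00653) in KI and −1.23 (adjusted p = 0.0230) in WT glands. The other probe named Scd1 lies on the plus strand, opposite to the one used, and is not given here as a repeat measurement. Scd1 still counts among the 19 genes with several probes, and that probe enters the settings with the mean of probes or the dimmest probe. The second Aoc3 probe was weaker, at −1.27 (adjusted p = 0.00269) in KI and −0.69 (adjusted p = 0.0917) in WT glands. For Plin1 the 3 probes gave −2.84, −2.16 and −2.93 in KI and −2.59, −1.54 and −3.11 in WT glands, all called. No spot was saturated on any array.

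**Figure D4:**
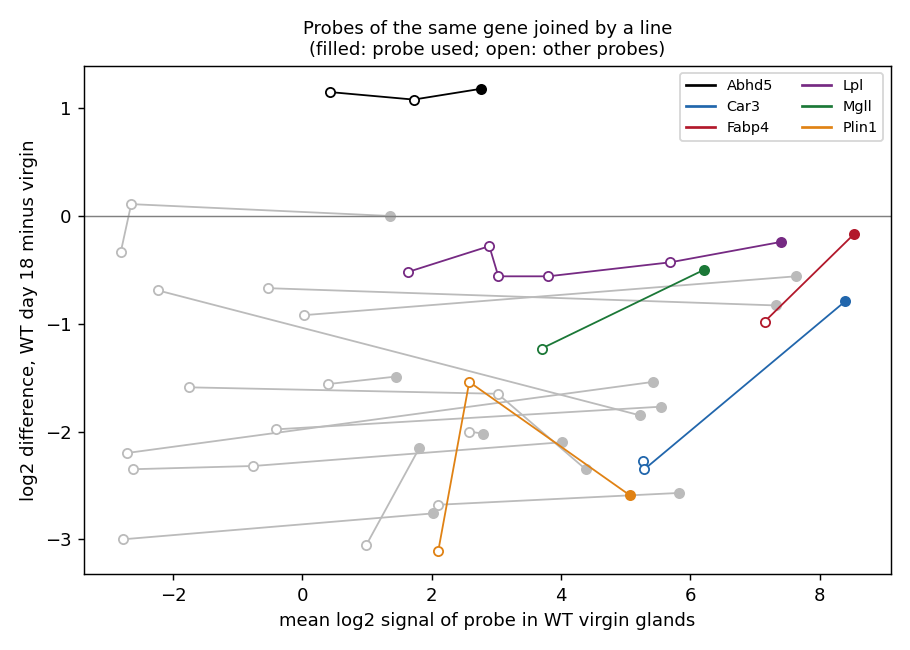
WT day-18 minus virgin log2 difference (y axis) against the mean log2 signal in WT virgins (x axis) for each passing probe of the 19 genes with several probes, joined by gene, with the probe used filled. Abhd5 lies between 1.08 and 1.18 over its 3 probes, the brightest probes of Fabp4, Car3 and Mgll lie nearer to 0 than their dimmer probes, and Plin1 spans −3.11 to −1.54.

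The second probes of 4 genes are given because they show the sequence behind a repeated measurement. Their positions are those of the array design in mm9. The Adrb3 probe (chr8:28337864-28337923, minus strand) gave −3.47 in KI and −2.68 in WT glands. The Lipe probe (chr7:26165828-26165887, minus strand) gave −2.38 and −2.0 in that order, the Fabp4 probe (chr3:10208442-10208501, minus strand) is the one with −1.45 and −0.98, and the Abhd5 probe (chr9:122277200-122277259, plus strand) the one with 0.96 and 1.08.
Adrb3 second probe: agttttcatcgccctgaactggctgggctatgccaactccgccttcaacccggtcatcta
Lipe second probe: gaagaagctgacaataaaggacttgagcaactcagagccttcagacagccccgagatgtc
Fabp4 second probe: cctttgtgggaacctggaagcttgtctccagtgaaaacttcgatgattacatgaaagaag
Abhd5 second probe: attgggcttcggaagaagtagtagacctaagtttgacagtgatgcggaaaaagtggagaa

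Setting each gene against Adipoq on the same array asks which genes changed more or less than another adipocyte transcript. Adipoq itself was 5.40 ± 1.03 (SD, n = 5) in KI glands at day 18 and 7.58 ± 0.95 (SD, n = 7) in KI virgins, a difference of −2.18 ± 0.40, adjusted p = 1.39e-04. Adipoq was 6.11 ± 0.26 (SD, n = 5) in WT glands at day 18 and 7.86 ± 0.29 (SD, n = 7) in WT virgins, a difference of −1.75 ± 0.40, adjusted p = 0.00130. Relative to it, 3 genes were lower in KI glands (Klb, −0.86 ± 0.32, adjusted p = 0.0163, Adrb3, −0.80 ± 0.28, adjusted p = 0.0102, and Plin1, −0.66 ± 0.23, adjusted p = 0.0104), where 0.505% of all genes were called lower and 85% higher. In WT glands 4 were lower (Acvr1c, −1.36 ± 0.34, adjusted p = 9.37e-04, Klb, −1.01 ± 0.32, adjusted p = 0.00674, Plin1, −0.84 ± 0.23, adjusted p = 0.00200, and Adrb3, −0.82 ± 0.28, adjusted p = 0.0105), where the shares were 1.17% and 75.6%. In KI glands 0 were called lower when only the KI groups were fitted, or when the 9 arrays with muscle markers above 0 were left out. With array weights, Aoc3, Cav2, Cebpa, Lipe and Slc2a4 were called lower relative to Adipoq in KI glands.

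Higher relative to Adipoq were 16 of the genes in KI and 14 in WT glands, fewer in share than among all genes. They were led by Abhd5 (3.60 in KI and 2.92 in WT glands), Gpihbp1 (2.85 and 2.62 in that order) and Cd36 (2.65 and 2.38). Fabp4 (1.83 and 1.58), Lpl (1.82 and 1.51) and Pnpla2 (1.52 and 1.39) were among them, with adjusted p of at most 1.12e-04 in each of the 3. Lipe, Pparg, Cebpa, Plin4, Pnpla3, Pde3b, Dgat2, Slc2a4, Pck1, Aoc3, Cav1 and Cav2 passed in neither genotype in the reported fit, so their difference from the change in Adipoq was not established. The comparison of a gland with itself removes the array's overall fat signal only as far as Adipoq follows it.

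Genes outside the 32 that act in the same pathways were read from 9 lists, beside shares of all genes of 18.5% lower and 23.7% higher in KI glands and 19.3% lower and 21.6% higher in WT glands. Hormonal control of lipolysis had 15 of 23 lower and 5 higher in KI glands, and 15 lower and 4 higher in WT glands. Its largest falls in WT glands were the receptor of butyrate and niacin Hcar2 (−3.36 ± 0.35, adjusted p = 1.06e-07 in KI and −3.24 ± 0.35, adjusted p = 1.78e-07 in WT glands), the prostaglandin receptor Ptger3 (−3.94 ± 0.40, adjusted p = 5.96e-08 and −3.18 ± 0.40, adjusted p = 1.26e-06) and the lactate receptor Hcar1 (−3.28 ± 0.43, adjusted p = 1.88e-06 and −3.14 ± 0.43, adjusted p = 3.74e-06), all of them receptors that lower cyclic AMP. Hcar1 was well above background on 4 of 5 KI day-18 arrays. Of 17 adipocyte transcription genes, 8 were lower and 5 higher in KI glands and 8 lower and 4 higher in WT glands, with Ebf2 (−2.85 ± 0.39, adjusted p = 4.31e-06 in KI and −2.69 ± 0.39, adjusted p = 1.02e-05 in WT glands), the lipogenic factor Mlxipl (−2.40 and −2.43) and Ebf1 (−2.23 and −2.14) furthest down.

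The other genes of the droplet coat and its partners were split, and the 3 with the largest change in WT glands rose. Of 10 such genes measured, 4 were lower and 5 higher in KI glands, and 3 lower and 3 higher in WT glands. Plin2, the perilipin of other cells' droplets and of milk fat globules, rose by 8.16-fold in KI (3.03 ± 0.37, adjusted p = 8.73e-07) and 8.67-fold in WT glands (3.12 ± 0.37, adjusted p = 6.25e-07). Cidea, the Cidec relative that epithelium uses to make large milk droplets, rose as well (2.89 ± 0.83, adjusted p = 0.00695 in KI and 3.34 ± 0.83, adjusted p = 0.00242 in WT glands), and so did G0s2, the inhibitor of PNPLA2 (1.62 ± 0.36, adjusted p = 9.43e-04 and 1.69 ± 0.36, adjusted p = 6.68e-04). Plin2 and Cidea are also made by the milk-secreting epithelium, whose part was not tested.

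Triglyceride assembly had 7 of 12 lower and 2 higher in each genotype, led by the acyltransferases Gpat3 (−2.24 ± 0.32, adjusted p = 7.42e-06 in KI and −2.60 ± 0.32, adjusted p = 1.04e-06 in WT glands), Agpat2 (−2.74 and −2.22) and Mogat1 (−2.53 and −1.88). Uptake and activation of fatty acids and glycerol had 4 of 14 lower and 7 higher in each genotype. Its largest changes were rises in the carrier Fabp3 (8.52 ± 1.03, adjusted p = 6.84e-07 in KI and 8.65 ± 1.03, adjusted p = 5.93e-07 in WT glands), the glycerol kinase Gk (4.23 and 4.50) and the acyl-CoA synthetase Acsl4 (3.80 and 3.39). Caveolar partners had 4 of 5 lower in KI and 3 of 5 in WT glands, with Cavin1 at −1.56 and −1.77, Cavin3 at −1.32 and −1.45, and Cavin2 at −1.03 and −0.96. Adipocyte lipogenesis had 2 of 11 lower and 0 higher in each genotype, a lower share near that of all genes, and the synthetase Acss2 (−2.48 ± 0.49, adjusted p = 3.00e-04 in KI and −1.85 ± 0.49, adjusted p = 0.00423 in WT glands) was called in both, Scd2 (−0.95 ± 0.50, adjusted p = 0.133 and −1.32 ± 0.50, adjusted p = 0.0357) in WT glands.

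Receptor partners of ACVR1C and KLB had 2 of 7 lower and 1 higher in each genotype. Fgfr1, which forms the FGF21 receptor with beta-klotho, fell (−0.93 ± 0.29, adjusted p = 0.0113 in KI and −1.36 ± 0.29, adjusted p = 5.29e-04 in WT glands), as did the activin B subunit Inhbb (−0.97 ± 0.38, adjusted p = 0.0401 and −1.15 ± 0.38, adjusted p = 0.0172), and the signal carrier Smad3 was higher (1.14 ± 0.26, adjusted p = 0.00117 and 0.67 ± 0.26, adjusted p = 0.0432). Adipokines had 4 of 8 lower and 2 higher in each genotype, with Rbp4 lower (−3.01 ± 0.41, adjusted p = 3.58e-06 in KI and −2.18 ± 0.41, adjusted p = 1.84e-04 in WT glands) and the vasoactive peptide gene Apln higher (4.06 ± 0.37, adjusted p = 1.31e-08 and 4.20 ± 0.37, adjusted p = 7.49e-09). Leptin was not called (−0.01 ± 0.17, adjusted p = 0.970 in KI and 0.19 ± 0.17, adjusted p = 0.408 in WT glands).

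The knock-in allele gave no called difference in these genes. At day 18, 0 of the 32 passed the test and 0% of all genes did, and 0 of the 32 had an unadjusted p under 0.05, against 1.97% of all genes. In virgins 0 of the 32 and 0% of all genes passed, and 2 had an unadjusted p under 0.05, against 3.57% of all genes. Those were Adig (−0.57 ± 0.25, unadjusted p = 0.0336, adjusted p = 0.695) and Npr3 (0.86 ± 0.41, unadjusted p = 0.0442, adjusted p = 0.695), in the limma fit with 7 KI and 7 WT virgins. Without mouse 376 they were −0.29 and 1.20, each with an adjusted p of 1.00, and without the 9 arrays with muscle markers above 0 Npr3 was at 0.37. The test of whether stage changes differed between the genotypes gave 0 of 32 by adjusted and by unadjusted p, with 0.97% of all genes under 0.05 unadjusted. The interaction estimates ran from −0.66 to 0.24, and 25 of 32 were below 0. The lowest was Pnpla3, whose second probe gave 0.60, so its sign turned with the probe.

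Leaving out 1 mouse could turn the sign of the median genotype difference in virgins, but not at day 18. At day 18, 29 of the 32 were lower in KI than in WT glands, with a median of −0.37 where all genes had −0.03, and without mouse 239 the count was 27 and the median −0.20. In virgins 29 of 32 were lower, with a median of −0.18 where all genes had −0.10. Without mouse 376 only 5 of 32 were lower in KI virgins and the median was 0.15, so its sign rested on that array. Without the arrays with muscle markers above 0 the medians were −0.61 at day 18 and −0.51 in virgins. The slides differed too: the virgin medians within slides were −0.80, 0.22 and 0.27, and the day-18 medians −0.89, −0.25 and 0.00. Adrb3 and Fabp5 were the 2 genes whose day-18 groups did not overlap, where 0.849% of all genes were lower without overlap. Adrb3 was at 1.60, 2.75, 2.76, 2.79 and 2.92 in KI and 3.0, 3.02, 3.03, 3.40 and 3.86 in WT glands (−0.70 ± 0.37, adjusted p = 1.00), and Fabp5 at 5.28, 5.55, 5.59, 5.64 and 5.67 in KI and 5.69, 5.73, 6.13, 6.29 and 6.31 in WT glands (−0.48 ± 0.46, adjusted p = 1.00). Without mouse 239 the Adrb3 difference was −0.46. Skeletal muscle markers averaged 1.01 ± 4.12 (SD, n = 5) in KI and −2.03 ± 1.79 (SD, n = 5) in WT glands at day 18, and their part in these values was not tested.

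The 95% intervals show what sizes of genotype difference the arrays could not separate from 0. Over the 32 genes they reached from −2.23 to 1.36 at day 18 and from −1.39 to 1.7 in virgins, extending by a median of 0.83 and 0.71 on each side of the estimate. The stage differences had a median of 0.77 in both genotypes, and the interaction 1.09. The median SD of a gene among mice was 0.50 in KI and 0.33 in WT glands at day 18, and 0.99 in KI and 0.32 in WT virgins. It was 0.29 in KI virgins without mouse 376 and 0.27 in KI day-18 glands without mouse 239. The 4 groups share 1 estimate of spread, so the intervals of every comparison include the spread that mouse 376 adds. No intervals were computed without that mouse.

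**Figure D5:**
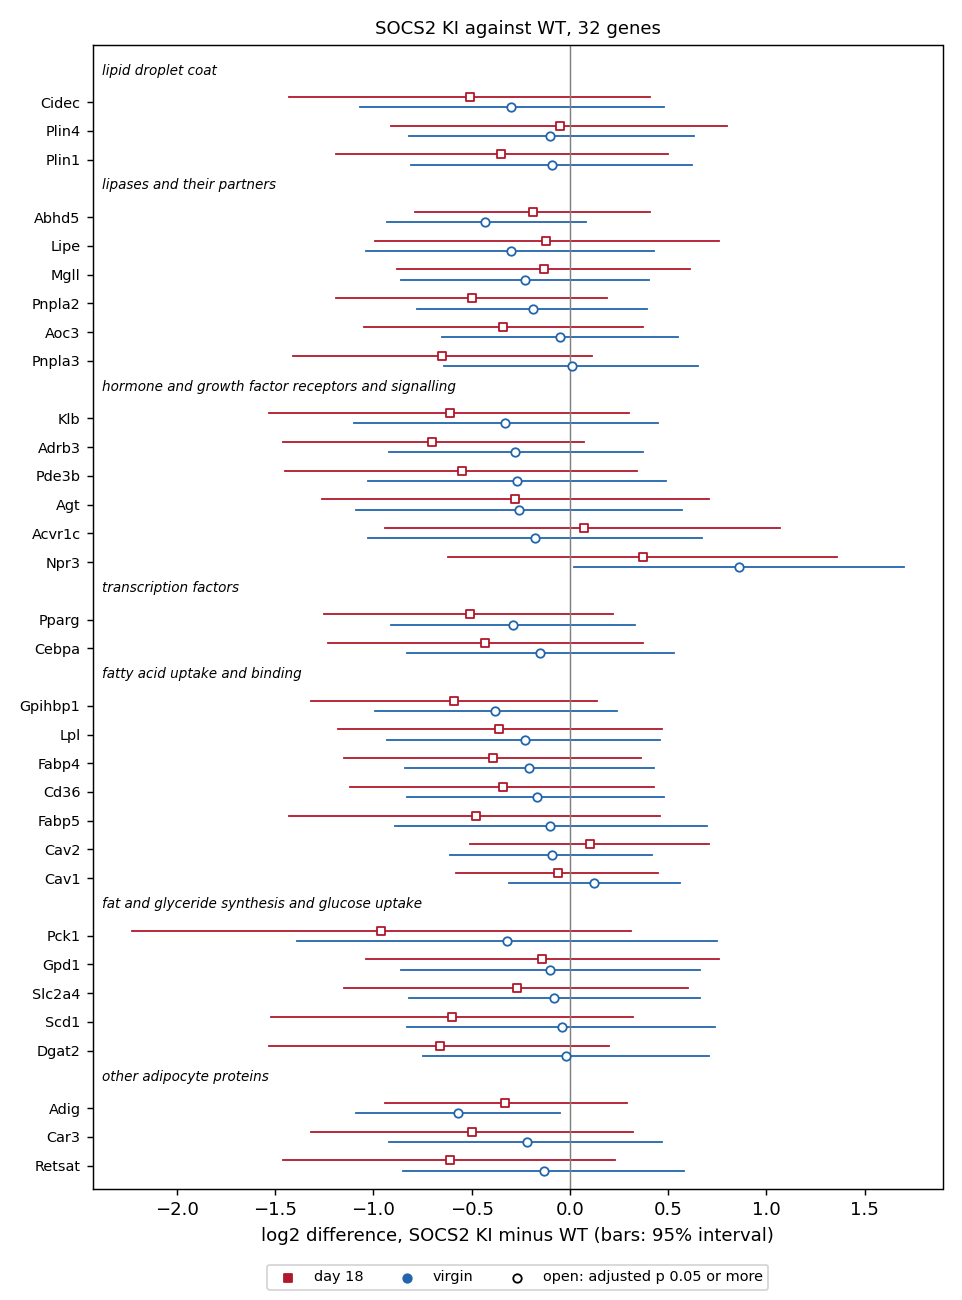
Log2 difference between KI and WT glands (x axis) for the 32 genes at day 18 and in virgins, with 95% intervals as bars; every symbol is open because no gene passed the test. Points lie below 0 for 29 of 32 genes at each stage, but for 5 of 32 in virgins without mouse 376, while the interval crosses 0 for all but Adig and Npr3 in virgins.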

How the data were processed

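RNA from 24 mammary glands was labelled with Cy3 and hybridised to Agilent one-colour mouse arrays. The deposited files, per the file headers, hold Feature Extraction output with background-subtracted and scanner-processed spot intensity (gProcessedSignal), and per the submitters' processing notes this was Agilent Feature Extraction 12.0.3.2. The authors' deposited series value table holds log10 values with no scaling between arrays: they matched the log10 of those intensities with a largest difference of 0.0050, and were used as an alternative.

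Here spots flagged as outliers were left out, log2 intensities were taken minus each array's 75th percentile over non-control probes, and spots of a probe were averaged. The filter asked for a call of well above background on 80 percent or more of a group's arrays, in any group, and left 35117 of 56605 probes, and the brightest probe stood for its gene, giving 22382 genes. Names were updated through RefSeq accessions and symbols, and 26 changed. All 4 groups entered 1 limma fit (limma 3.58.1, R 4.3.3, lmFit and eBayes), with Benjamini-Hochberg adjustment over all genes. The fit was tested on simulated data. P-values measure spread between mice, each an array of its own. The number of arrays and their probe signal limit the precision. The Adipoq-relative fit subtracts each array's Adipoq level. Slide (3 slides of 8 arrays) was tried as a block and within slides. Mouse numbers in the labels are all different.

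All 32 members were described. From each of the 9 pathway lists, up to 3 genes with the largest change past the threshold in WT glands were named, with Adipoq, Lep and Socs2 besides. The members and lists were chosen with earlier results of these data known.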

Additional observations from a re-analysis of the deposited data

Results flagged for a closer look

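Of 144 series of group values examined for a sample apart from its group, 38 held 1. Chance gives about 1 in 20 for a single series. The series come from the same 24 arrays and are not independent, so their count cannot be set against that rate. KI virgin mouse 376, the array with the raised negative-control signal, was the low sample in 26, namely 24 of the genes, Adipoq at 5.44 and the mean of the genes at 2.89. For the droplet, binding and uptake genes its levels were 2.76 for Plin1, 4.58 for Plin4, 5.56 for Cidec, 6.15 for Fabp4, 4.98 for Lpl, 2.29 for Cd36, 1.71 for Gpihbp1 and 2.66 for Cav2. For the lipases, receptors and regulators they were −0.03 for Lipe, 4.87 for Pnpla2, 3.77 for Mgll, 0.78 for Abhd5, 3.19 for Aoc3, 3.58 for Adrb3, 0.72 for Acvr1c, 1.42 for Pde3b, 2.95 for Pparg and 2.13 for Cebpa. For the remaining genes they were 3.19 for Slc2a4, 5.12 for Scd1, 3.58 for Pck1, 5.95 for Car3, 4.40 for Adig and 0.38 for Retsat. Before scaling, the median log2 signal of its probes was 10.69, where no other array was outside 4.41 to 6.36. Its 75th percentile, which the scaling subtracts from each of its probes, was 11.51, where no other array was outside 7.87 to 9.16. The levels listed here are after that subtraction, and its part in them was not tested. Mouse 376 was also the lowest KI virgin for the means of fibroblast, endothelial, macrophage and red blood cell markers. For luminal and basal epithelial, milk secretion, skeletal muscle and brown adipocyte markers another KI virgin was lowest. Its slide, its background and its composition were not separated from one another.

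KI mouse 239 at day 18 was low in 7, at 7.25 for Fabp4, 3.40 for Plin4, 5.35 for Pnpla2, 2.64 for Pparg, 1.60 for Adrb3, 2.20 for Aoc3 and −0.24 for Pde3b. WT mouse 206 at day 18, the only WT day-18 gland on its slide, was low for Acvr1c (−1.67) and Cav2 (1.47). WT mouse 235 at day 18 was high for Cav1 (0.35), WT mouse 233 at day 18 low for Socs2 (1.36), and WT virgin mouse 369 high for Pnpla2 (7.36).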

How the results depend on the processing

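No paired analysis was possible because every mouse number occurs in 1 group only. The 17 other settings and 24 fits that each left out 1 mouse gave 0 of 32 genes called for KI against WT in virgins, at day 18 and in the interaction. Scaling to the spike-ins gave medians of −2.54 in KI and −2.46 in WT glands for day 18 against virgin, with 28 and 26 genes lower and 0 higher, all-gene medians of −0.78 and −0.90, and 10.5% and 7.72% of called genes higher, against 56.2% and 52.8% in the reported fit; the cause was not tested. Median scaling called 11 genes in WT glands, all lower, and 4616 genes in KI and 4893 in WT glands over the array, against 9443 and 9135. Normexp correction gave 65.2% and 63.3% of called genes higher. Over the array, spike-in scaling called 14800 and array weights 14131 genes in WT glands, and leaving out the arrays with muscle markers 5249 in KI glands. Relative to Adipoq, quantile normalization called 1 gene lower in each genotype, and the dimmest probe or the mean of probes 1 in KI glands. The KI against WT median in virgins was −0.80 within slide 1, which holds mouse 376. Called values that turned sign were Gpihbp1 in WT glands under spike-in scaling (−0.10) and, relative to Adipoq, Car3. Car3 did so with its dimmest probe (−0.44 in KI and −0.52 in WT glands) and, in WT glands, with the mean of probes (−0.06). In KI glands, array weights gave negative values relative to Adipoq for Aoc3 (−0.27), Cav2 (−0.55), Cebpa (−0.32), Lipe (−0.75) and Slc2a4 (−0.65). These genes were above 0 and not called in the reported fit, and were called with array weights. The cause was not tested. Values not called that turned sign under spike-in scaling were Gpihbp1 in KI (−0.24), Cd36 (−0.44 in KI and −0.34 in WT), Agt (−0.50 and −0.54) and Retsat in WT glands (−0.74), and under other settings Cd36 and Retsat in KI and Fabp5 in WT glands turned to values between −0.05 and 0.13. Leaving out 1 mouse gave 19 to 27 genes called in KI and 19 to 24 in WT glands for day 18 against virgin, medians of −1.91 to −1.36 and −1.53 to −1.42, −0.27 to 0.15 for KI against WT in virgins, −0.49 to −0.20 at day 18 and −0.58 to −0.02 for the interaction, and 18 to 20 and 17 to 19 relative to Adipoq. Settings chosen after seeing the data were the percentile over passing probes, the dimmest probe, and leaving out the 9 arrays with muscle markers above 0 (17 lower and 1 higher in each genotype).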

Other observations

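Counts for other cell type lists stand beside 18.5% of all genes lower and 23.7% higher in KI glands and 19.3% lower and 21.6% higher in WT glands. Fibroblast markers had 5 of 6 lower at day 18 in KI and 6 of 6 in WT glands, macrophage markers 5 of 6 in both, and endothelial markers 4 of 7 in KI and 3 of 7 in WT glands, where the other endothelial markers were not called. Brown adipocyte markers had 4 of 7 lower in KI and 3 of 7 in WT glands, and white adipocyte markers outside the 32 genes 2 of 4 in both. Basal epithelial markers had 6 of 6 higher in KI and 3 of 6 in WT glands. Red blood cell genes had 2 of 5 lower in KI and 5 of 5 in WT glands, and skeletal muscle genes 1 of 8 higher in KI glands and 0 of 8 called in WT glands.

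Around their group means the 32 genes varied together over the arrays. The median correlation over 496 pairs of genes was 0.77 with all 24 arrays and 0.44 without mice 376, 198 and 184. The arrays share tissue composition and scaling, and no test was made.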
